A study of Mus musculus with 15 samples.

Results

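Serpin genes were followed in 3 kinds of mouse liver carcinoma on Agilent SurePrint G3 expression arrays. A gene belonged to the set when a probe other than a control carried a symbol beginning with Serpin. This gave 78 of 55681 probes and 61 of 24336 gene symbols, 24 genes of clade A, 27 of clade B and 10 of clades C to I. Angiotensinogen, a clade A serpin whose symbol lacks the prefix, was outside the rule, and Serpina1b was not among the symbols of the probes used here. The 5 p53f/f HCC samples were hepatocellular carcinomas (HCC) of mice whose Trp53 alleles are floxed but not deleted. The 5 p53LKO HCC samples were hepatocellular carcinomas of mice with a liver-specific deletion of Trp53. The 5 p53LKO ICC samples were intrahepatic cholangiocarcinomas (ICC), cancers of the bile duct lineage, of mice with the same deletion. The mice of the HCC groups were male, and the sex of the 1 ICC mouse that gave no HCC here, mouse 3977, is not given in the sources used here. All mice had a C57/BL6J background and were injected with carbon tetrachloride (CCl4), a toxin that damages hepatocytes, at 0.5 µl per g every 3 days for 16 weeks, starting at 6 weeks of age. The promoter that drives Cre, the deleted exons and the age of each mouse at collection are not given in the sources used here, and p53f/f mice were followed for longer, so that genotype and age cannot be told apart. The 5 p53f/f tumors came from 4 mice, and 4 mice gave both a p53LKO HCC and an ICC. No normal liver was among the arrays.

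Serpins share a fold in which an exposed loop baits a serine protease. Cutting the loop makes the serpin snap shut on the protease and inactivates both proteins. The liver secretes most serpins of the blood, which hold coagulation, complement, fibrinolysis and neutrophil elastase in check. Clade B serpins mostly stay inside the cell that makes them and guard it against its own granule or lysosomal proteases. Some serpins have lost the inhibitory function and carry hormones or fold collagen instead.

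Levels are log2 signals relative to the 75th percentile of each array, so that 0 is a probe at that percentile, and they are compared only within a probe. A gene is represented by its brightest probe, and a change was called at a limma adjusted p under 0.05 with a fold above 2. The share of probes well above background was 55.1 to 70.1% on p53f/f HCC, 37.0 to 62.1% on p53LKO HCC and 42.5 to 47.0% on ICC arrays. Among p53LKO HCC arrays it was 46.4 and 37.0% in the lower row of the slides, and 62.1, 61.2 and 61.0% in the upper row. All p53f/f HCC arrays lay in the upper row of the 2 slides, all ICC arrays in the lower row, and p53LKO HCC arrays in both (2 lower, 3 upper), so that the position on the slide moved with the groups. The slide did so in part as well, since most p53f/f HCC arrays lay on the first slide and most ICC arrays on the second. The upper-row p53LKO HCC arrays were all on the second slide and the lower-row ones on the first. Comparisons within a row therefore still differ by slide. The Trp53 probe measured -1.27, -1.07 and -0.68 (lowest, median and highest) on p53f/f HCC arrays, -3.86, -2.86 and -2.75 in p53LKO HCC, and -4.19, -2.98 and -2.31 in ICC. It was thus lower in the p53LKO HCC (log2 fold change -2.08, adjusted p = 0.000166) and did not pass the test between ICC and p53LKO HCC (0.02, adjusted p = 0.969). Whether that probe lies in the deleted exons is not given in the sources used here.

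The tissue was whole tumor, so that fewer cells of a type and less RNA per cell cannot be told apart. The summed level of 8 hepatocyte markers, as multiples of the 75th percentile, was 1810 to 3230 on p53f/f HCC arrays, 1420 to 1970 in p53LKO HCC and 153 to 1010 in ICC. All 8 were detected in every group, none was called between the HCC groups and 5 were lower in ICC. Cyp2e1 had the opposite sign in ICC but did not pass the test (1.94, adjusted p = 0.101). The sum is of linear levels, so that the brightest marker, Alb, weighs most in it. Alb, which encodes albumin, passed the test between the HCC groups short of 2-fold (-0.60, adjusted p = 0.0433). The 7 biliary markers summed to 4.42 to 28.1, 5.30 to 10.5 and 67.1 to 144 in the same order, with 4 called higher in ICC, 0 called between the HCC groups and Epcam not well above background on any p53LKO HCC array. The 7 stellate cell and fibroblast markers summed to 13.9 to 61.7, 39.2 to 171 and 282 to 523, with 4 higher in ICC and 0 called between the HCC groups. The 7 neutrophil markers summed to 3.56 to 14.1, 18.7 to 71.4 and 6.25 to 75.3. Of 5 tested between the HCC groups 4 were higher in p53LKO HCC, Ngp was not well above background on any p53f/f HCC array, and 0 of 6 were called in ICC. Of 6 T and NK cell markers 1 was higher in p53LKO HCC and 2 in ICC, of 6 macrophage markers 0 were called, and of 5 endothelial markers 1 was lower in p53LKO HCC and 0 were called in ICC. The part of these cells in the results that follow was not tested.

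The first comparison asked how Serpin genes differ between HCC with and without liver p53. Of 45 Serpin genes tested, 7 were higher in the p53LKO HCC and 4 lower, 15.6% and 8.89% of them, where 5.19% of all 17847 genes tested were called higher and 10.8% lower. The 7 that rose were Serpinb6a, Serpinb6b, Serpinb6c, Serpinb6d, Serpinb6e, Serpinb11 and Serpinh1, and the 4 that fell were Serpina3c, Serpina3h, Serpina3i and Serpina3n. The probes of Serpinb6a, Serpinb6c and Serpinb6e are nearly alike, so that the count of rises does not stand for as many separate signals. The median log2 fold change was -0.63 over 22 clade A genes, 1.14 over 14 clade B genes and 0.06 over all genes tested. Scaling to the probes detected on all arrays turned the split from 7 higher and 4 lower to 0 and 8, and scaling to the spike-in probes turned it to 9 and 1. With the 2 tumors of mouse 3717 averaged, 5 were higher and 3 lower, and Serpinb6b, Serpinh1 and Serpina3n were lost. Without the p53f/f tumor of mouse 3681 only 1 gene was higher, and among upper-row arrays 2 were higher and 2 lower.

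The second comparison set ICC against HCC of the same genotype and uses the same p53LKO HCC arrays. Of 47 Serpin genes tested, 16 were higher in ICC and 11 lower, 34.0% and 23.4% of them, where 13.2% of all 16962 genes tested were called higher and 15.2% lower. Clade B had 10 of 15 tested genes higher and 0 lower, with a median log2 fold change of 2.34. The nearly alike probes of Serpinb6a, Serpinb6c and Serpinb6e are again among the 10. Clade A had 4 of 22 higher and 7 lower, with a median of -0.54, and the median over all genes tested was -0.17. Of the other 10 genes, Serpine2 and Serpinh1 rose, and Serpinc1, Serpind1, Serpinf2 and Serpini2 fell. Within lower-row arrays, with 2 p53LKO HCC left, 4 rather than 11 genes were lower, 3 of the 11 and, in addition, Serpinf1.

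**Figure D1:**
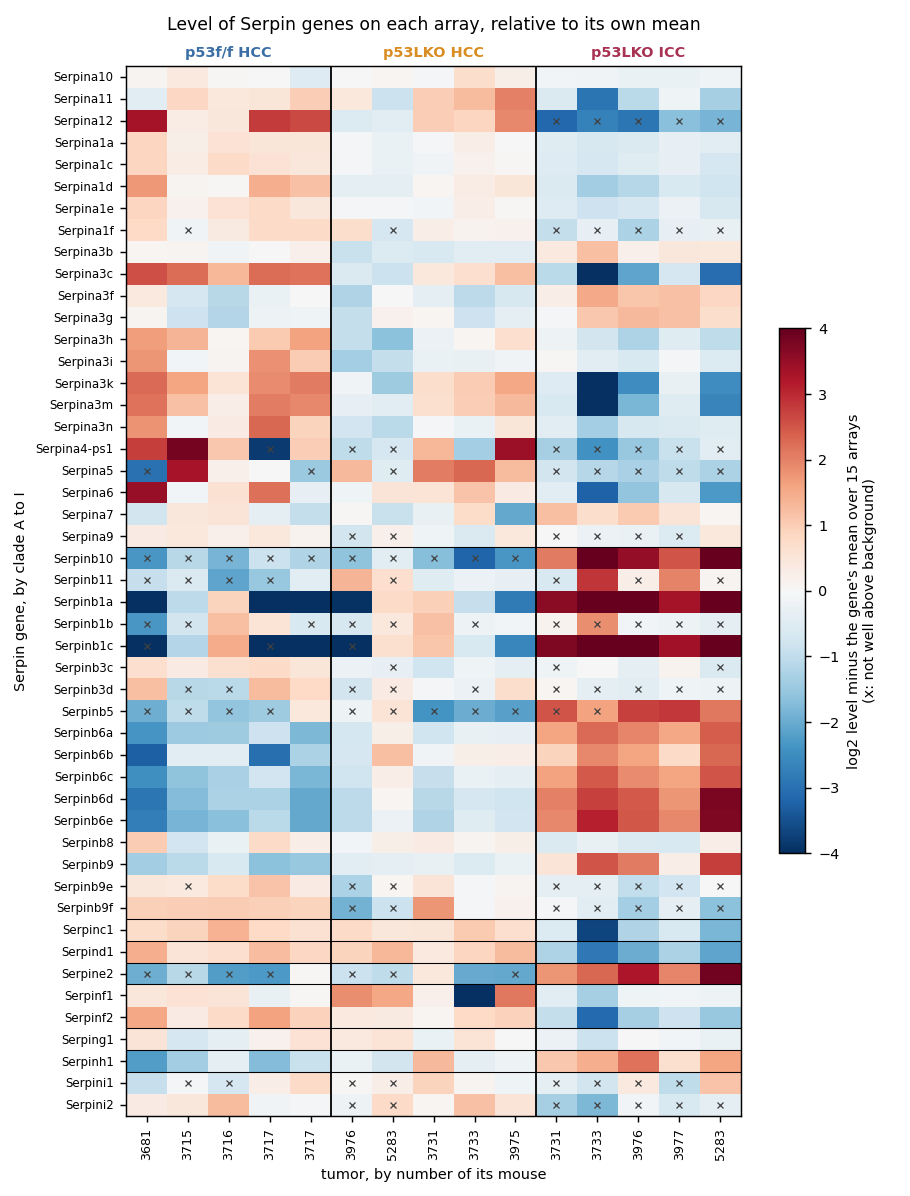
Level of Serpin genes (rows, by clade) on the 15 arrays (columns, by group and mouse), as the log2 difference from the gene's mean, with colours clipped at 4 on either side and a cross where the probe was not well above background. All but 1 of the 49 genes well above background on at least 3 arrays are drawn. Serpinb1a, Serpinb1c, Serpinb10 and the Serpinb6 genes are high in the ICC columns, and Serpinc1, Serpind1 and Serpinf2 are low there.

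In the genome the family lies mostly in arrays of related genes. The probes of 23 clade A genes lie in 797 kb of chromosome 12 (mm9 104854887 to 105651977), those of 14 clade B genes in 1075 kb of chromosome 13 (32934693 to 34009855) and those of 12 in 726 kb of chromosome 1 (108778585 to 109504924). Of the chromosome 13 genes, 9 were tested, and 5 were higher in p53LKO HCC and 7 in ICC, with none lower in either comparison, where 5.19% and 13.2% of all genes tested were called higher. Both counts include Serpinb6a, Serpinb6c and Serpinb6e, whose nearly alike probes are not separate evidence. On chromosome 1 1 of 4 tested genes was higher in p53LKO HCC and 2 of 5 in ICC. Of the 21 tested genes in the chromosome 12 cluster 4 were lower and 0 higher in p53LKO HCC, and 7 were lower and 3 higher in ICC, where 10.8% and 15.2% of all genes were called lower. Well above background on every array were 17 of 24 clade A but 8 of 27 clade B genes.

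The Serpina1 genes encode alpha-1 antitrypsin, the main plasma inhibitor of neutrophil elastase, and the mouse has several near-identical copies of them. Probes of 3 copies are shown because of how alike they are. Over the 30 bases that differ least the Serpina1a and Serpina1c probes are equal and the Serpina1e probe differs at 1 base, in capitals.
Serpina1a: aTgtcatccttccttctgaattgggttcct
Serpina1c: aTgtcatccttccttctgaattgggttcct
Serpina1e: aAgtcatccttccttctgaattgggttcct
The probes lie on the minus strand of chromosome 12 (mm9 105091819 to 105091878, 105133165 to 105133224 and 105185172 to 105185231). The Serpina1a and Serpina1c probes match at 50 of 51 overlapping bases, so a signal of one may hold RNA of the other. The Serpina1c and Serpina1e probes are less alike, with 49 of 59 bases equal, and the Serpina1d probe matched none of them as closely. Whether these probes also take up RNA of Serpina1b was not tested.

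Serpina1c measured 10.42, 9.87, 10.32, 10.12 and 10.005 on p53f/f HCC arrays, 9.49, 9.30, 9.40, 9.74 and 9.59 in p53LKO HCC, and 9.05, 8.89, 9.07, 9.24 and 8.89 in ICC. The 3 groups did not overlap, p53f/f HCC being highest and ICC lowest. Both differences passed the test but neither reached 2-fold: -0.64 ± 0.164 (SE) between the HCC groups (adjusted p = 0.0126) and -0.48 between ICC and p53LKO HCC (adjusted p = 0.0233). Serpina1a measured 10.46, 9.83, 10.16, 10.09 and 10.07 on p53f/f HCC arrays, 9.53, 9.33, 9.502, 9.84 and 9.56 in p53LKO HCC, and 9.09, 8.96, 9.01, 9.25 and 9.14 in ICC. Serpina1e measured 10.33, 9.66, 10.04, 10.23 and 9.94 on p53f/f HCC arrays, 9.42, 9.39, 9.38, 9.76 and 9.54 in p53LKO HCC, and 8.98, 8.66, 8.79, 9.25 and 8.84 in ICC. Both followed the order of Serpina1c, with 1 p53LKO HCC array above the lowest p53f/f HCC. Serpina1a differed by -0.57 (adjusted p = 0.0237) and -0.46 (adjusted p = 0.0261), and Serpina1e by -0.54 (adjusted p = 0.0316) and -0.59 (adjusted p = 0.0123). Serpina1d measured 9.72, 8.10, 8.05, 9.45 and 9.17 on p53f/f HCC arrays, 7.64, 7.60, 8.08, 8.30 and 8.48 in p53LKO HCC, and 7.42, 6.60, 6.85, 7.38 and 7.20 in ICC. Its ICC level lay below every p53LKO HCC array (-0.93, adjusted p = 0.00928), short of 2-fold, and the HCC groups did not pass the test (-0.88, 95% interval -1.66 to -0.10, adjusted p = 0.0780). The difference between the HCC groups depended on the scaling: with quantile normalization it was -0.04 for Serpina1c, 0.01 for Serpina1a and 0.02 for Serpina1e, and with spike-in scaling it was 0.08, 0.16 and 0.18, none passing the test. In ICC all 3 kept their sign, but with quantile normalization and among lower-row arrays none passed (adjusted p = 0.236, 0.259 and 0.149 among the latter). The dimmer probes of Serpina1a, Serpina1d and Serpina1e, lower in ICC by -1.34 (adjusted p = 0.00402), -1.26 (adjusted p = 0.00470) and -1.48 (adjusted p = 0.00106), did pass 2-fold. No Serpina1 spot was saturated.

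Promoters of the Serpina1 genes are shown because the copies share an element. RefSeq (GRCm38.p6) gave the 250 bases before the start for 50 of the 61 Serpin genes. The letters GTTAATNTT, which begin with GTTAAT, the half-site of the liver factor HNF1, and fit the Serpina1 promoters rather than the whole HNF1 site, were searched on both strands and stood in 0.984% of all 27025 promoters and in those of 5 Serpin genes, Serpina1a, Serpina1c, Serpina1d, Serpina1e and Serpinb8. Each stretch has the match in capitals and is on the minus strand of chromosome 12.
Serpina1a, 103863626 to 103863725: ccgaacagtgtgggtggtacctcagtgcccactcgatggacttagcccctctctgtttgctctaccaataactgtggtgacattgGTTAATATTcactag
Serpina1c, 103904963 to 103905062: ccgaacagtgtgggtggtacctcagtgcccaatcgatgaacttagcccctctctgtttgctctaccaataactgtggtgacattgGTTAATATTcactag
Serpina1d, 103773635 to 103773734: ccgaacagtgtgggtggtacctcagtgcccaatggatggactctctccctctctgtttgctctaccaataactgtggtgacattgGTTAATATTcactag
Serpina1e, 103956961 to 103957060: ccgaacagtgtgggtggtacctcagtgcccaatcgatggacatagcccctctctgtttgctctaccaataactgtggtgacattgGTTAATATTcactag
The windows of Serpina1a, Serpina1c and Serpina1e differ from each other at 2 of 100 bases, and that of Serpina1d differs from each of them at 6. Of the other letters searched, GTTAAT, which overlaps the longer motif, stood in 10 of the 50 Serpin promoters and 7.49% of all, TATAAA in 28.0% and 14.3%, and TTCNNNGAA, the letters of STAT sites, in 16.0% and 8.13%. GGGCGG, the letters of SP1 sites, stood in 14.0% and 35.4%, and the Serpin genes that hold it are Serpina12, Serpinb5, Serpinb6a, Serpinb6b, Serpinb6c, Serpine2 and Serpinh1. A match is a run of letters, not a bound site.

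The Serpina3 genes correspond to the single human gene for alpha-1 antichymotrypsin, an acute-phase inhibitor of cathepsin G and chymotrypsin-like proteases. Of 9 tested in each comparison, 4 fell in p53LKO HCC, where 10.8% of all genes were called lower, and in ICC 3 fell and 3 rose, where 15.2% and 13.2% of all genes were called lower and higher. Serpina3c fell in both. Serpina3c, the most changed between the HCC groups, measured 6.36, 6.01, 5.09, 5.998 and 5.95 on p53f/f HCC arrays, 3.19, 2.90, 4.20, 4.43 and 4.98 in p53LKO HCC, and 2.69, -0.74, 1.65, 3.09 and 0.74 in ICC. Every p53LKO HCC lay below every p53f/f HCC, and ICC overlapped p53LKO HCC on 1 array. Serpina3c fell by 1.94 ± 0.397 (SE) on the log2 scale in p53LKO HCC, 3.85-fold (adjusted p = 0.00399), and by 2.46 in ICC, 5.49-fold (adjusted p = 0.0147). Among upper-row arrays it was still lower between the HCC groups (-1.35, adjusted p = 0.0114), but among lower-row arrays the ICC difference did not pass (-1.56, adjusted p = 0.258).

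Serpina3n, a broadly expressed acute-phase member, measured 5.07, 3.17, 3.60, 5.58 and 4.17 on p53f/f HCC arrays, 2.50, 2.21, 3.19, 3.005 and 3.76 in p53LKO HCC, and 2.86, 1.93, 2.63, 2.70 and 2.79 in ICC. The HCC groups overlapped on 2 p53LKO arrays. The difference of -1.38 (adjusted p = 0.0409) was lost among upper-row arrays (-0.997, adjusted p = 0.194) and under 15 of 26 other settings. Serpina3h measured 3.20, 2.91, 1.63, 2.58 and 3.16 on p53f/f HCC arrays, 0.59, -0.08, 1.32, 1.62 and 2.21 in p53LKO HCC, and 1.33, 0.80, 0.30, 1.06 and 0.53 in ICC. All but 1 p53LKO HCC array lay below the p53f/f HCC (-1.57, adjusted p = 0.0195, and -0.98, adjusted p = 0.0887, among upper-row arrays). Serpina3i measured 1.47, -0.42, -0.18, 1.53 and 0.72 on p53f/f HCC arrays, -1.66, -1.24, -0.57, -0.59 and -0.44 in p53LKO HCC, and -0.27, -0.75, -0.90, -0.34 and -0.85 in ICC. Its HCC groups did not overlap, by a margin of a few hundredths (-1.53, adjusted p = 0.0175), and among upper-row arrays the call was lost (-1.16, adjusted p = 0.0973). Neither Serpina3h (-0.33, adjusted p = 0.522) nor Serpina3i (0.28, adjusted p = 0.409) nor Serpina3n (-0.35, adjusted p = 0.360) was called between ICC and p53LKO HCC.

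A second probe named Serpina3i gave another picture. It measured -3.17, -3.55, -3.73, -2.99 and -2.23 on p53f/f HCC arrays, -5.29, -3.31, -3.04, -3.77 and -2.30 in p53LKO HCC, and 0.14, 0.17, -0.42, 0.14 and -0.51 in ICC, and was higher in ICC (3.45, adjusted p = 0.000313), a size left uncertain by 2 p53LKO HCC values, -5.29 and -3.31, that were not well above background. The 2 probes of that name lie 76.93 kb apart in mm9 on opposite strands, and the second matches the Serpina3h probe at 51 of 57 bases. The stretches are shown because one symbol here covers different sequences, with capitals where they differ.
Serpina3h: tctaTgttgtgAaaaaatctattctatgac
Serpina3i, second probe: tctaCgttgtgGaaaaatctattctatgac
They lie at chromosome 12, 105491733 to 105491792 on the plus strand and 105427811 to 105427870 on the minus strand (mm9). No call for Serpina3h or Serpina3i can therefore be tied to 1 gene of the cluster with certainty.

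Serpina3k and Serpina3m fell in ICC. Serpina3k, also called contrapsin, measured 7.77, 7.09, 6.03, 7.38 and 7.56 on p53f/f HCC arrays, 5.34, 4.09, 6.18, 6.49 and 7.05 in p53LKO HCC, and 4.97, 1.22, 3.01, 5.21 and 3.001 in ICC. It was 5.09-fold lower in ICC (adjusted p = 0.0296), with 2 ICC arrays inside the HCC range, and that call was lost under 13 of 25 other settings. Serpina3m measured 6.95, 5.94, 5.05, 6.83 and 6.71 on p53f/f HCC arrays, 4.45, 4.33, 5.43, 5.77 and 6.09 in p53LKO HCC, and 4.17, 0.65, 2.95, 4.31 and 2.15 in ICC. All ICC arrays lay below all p53LKO HCC arrays (5.17-fold, adjusted p = 0.0147), by a few hundredths at the nearest pair. Among lower-row arrays neither passed (-1.23, adjusted p = 0.411, for Serpina3k and -1.55, adjusted p = 0.254, for Serpina3m). Between the HCC groups neither was called, at -1.33 (95% interval -2.49 to -0.17, adjusted p = 0.0737) and -1.08 (95% interval -2.07 to -0.10, adjusted p = 0.0847).

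Serpina3b, Serpina3f and Serpina3g went the other way and rose in ICC. Serpina3b measured -1.37, -1.36, -1.60, -1.49 and -1.26 on p53f/f HCC arrays, -2.34, -2.03, -2.08, -1.91 and -1.90 in p53LKO HCC, and -1.09, -0.26, -1.25, -1.02 and -1.03 in ICC. Its p53LKO HCC arrays were the lowest of the 3 groups, 0.64 below p53f/f HCC (adjusted p = 0.00836, short of 2-fold, and turning to 0.09 with spike-in scaling) and 2.18-fold below ICC (adjusted p = 0.00158). Serpina3f measured 0.84, -0.24, -0.67, 0.17 and 0.45 on p53f/f HCC arrays, -0.76, 0.42, 0.08, -0.59 and -0.19 in p53LKO HCC, and 0.71, 1.96, 1.55, 1.61 and 1.28 in ICC. All ICC arrays lay above all p53LKO HCC arrays (3.095-fold, adjusted p = 0.00126), although the other Serpina3f probe, 33.57 kb away in mm9, differed by less (0.77, adjusted p = 0.0893) and was not called. Serpina3g, an intracellular cathepsin inhibitor of activated immune cells, measured 2.65, 1.72, 1.39, 2.36 and 2.39 on p53f/f HCC arrays, 1.61, 2.72, 2.63, 1.73 and 2.15 in p53LKO HCC, and 2.47, 3.62, 3.85, 3.71 and 3.26 in ICC. It was 2.32-fold higher in ICC (adjusted p = 0.00964), with 4 of 5 ICC arrays above every p53LKO HCC array, and it missed the threshold with the mouse as a block (1.13, adjusted p = 0.102) and among lower-row arrays (1.22, adjusted p = 0.0882). Serpina3a and Serpina3j were not well above background on any array.

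The hormone carriers of clade A moved apart in ICC. Serpina6, corticosteroid-binding globulin, measured 8.24, 4.68, 5.38, 6.97 and 4.45 on p53f/f HCC arrays, 4.59, 5.28, 5.32, 5.90 and 5.11 in p53LKO HCC, and 4.31, 1.54, 3.20, 4.15 and 2.49 in ICC. Every ICC array lay below every p53LKO HCC array, 4.29-fold on average (-2.10 ± 0.492 SE, adjusted p = 0.00628), and a second probe fell by the same amount (-2.09, adjusted p = 0.00839). Among lower-row arrays the call was lost (-1.80, adjusted p = 0.114). The p53f/f HCC arrays of Serpina6 spanned the p53LKO HCC range (-0.70, 95% interval -2.15 to 0.74, adjusted p = 0.433). Serpina7, thyroxine-binding globulin, measured 0.58, 1.77, 1.82, 0.92 and 0.36 on p53f/f HCC arrays, 1.34, 0.40, 1.00, 2.04 and -0.74 in p53LKO HCC, and 2.51, 2.02, 2.37, 1.83 and 1.40 in ICC. Its 2.33-fold rise in ICC (adjusted p = 0.0465) left 3 ICC arrays within the HCC range, missed the threshold with the mouse as a block (0.88, adjusted p = 0.0719) and was lost under 16 of 25 other settings.

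Of the remaining clade A genes, Serpina10, the protein Z-dependent inhibitor of factor Xa, measured 6.52, 6.82, 6.47, 6.43 and 5.89 on p53f/f HCC arrays, 6.40, 6.499, 6.32, 7.12 and 6.64 in p53LKO HCC, and 6.32, 6.28, 6.17, 6.14 and 6.25 in ICC. The HCC groups overlapped, ICC lay just below every p53LKO HCC array, and neither difference passed the test (0.17, 95% interval -0.30 to 0.64, and -0.37, 95% interval -0.75 to 0.02). Serpina12, the adipokine vaspin, measured 2.03, -0.99, -0.85, 1.501 and 1.34 on p53f/f HCC arrays, -1.85, -1.71, -0.32, -0.43 and 0.62 in p53LKO HCC and was not well above background on any ICC array. It was at least 3.95-fold lower in ICC, a bound that takes the lowest signal well above background on each ICC array as the level there (adjusted p = 0.000837). Serpina5, the protein C inhibitor, measured -6.86, -0.57, -3.66, -3.88 and -5.35 on p53f/f HCC arrays, -2.57, -4.35, -1.81, -1.58 and -2.59 in p53LKO HCC, and -4.59, -5.02, -5.16, -4.88 and -5.14 in ICC. It was well above background on 4 p53LKO HCC arrays and no ICC array, at least 1.10-fold lower (adjusted p = 0.00184). Serpina11, which has no settled function, was 3.94-fold lower in ICC (adjusted p = 0.0188), a call lost with the mouse as a block (-1.93, adjusted p = 0.0567) and among lower-row arrays (-0.99, adjusted p = 0.333).

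**Figure D2:**
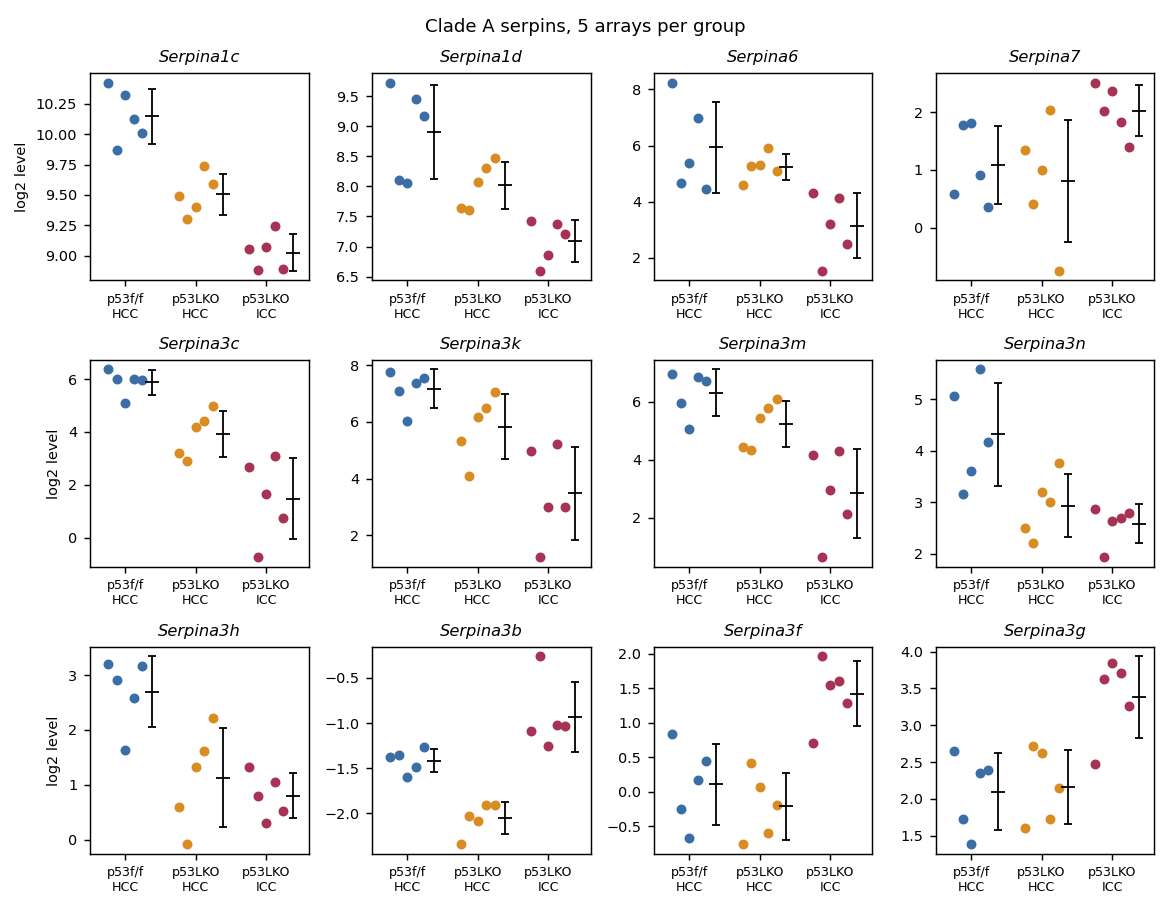
Log2 level of 12 clade A genes on each array, with 5 arrays per group in replicate order, filled points well above background, and a black mark with bars for the mean and SD. On this scaling Serpina1c steps down from p53f/f HCC to ICC without overlap, a step between the HCC groups that turns to 0.08 with spike-in scaling, Serpina3c and Serpina3m are lowest in ICC, and Serpina3b, Serpina3f and Serpina3g are highest there.

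Of the serpins that govern clotting and fibrinolysis, Serpinc1, Serpind1 and Serpinf2 were not called between the HCC groups and fell in ICC. Serpina10, the factor Xa inhibitor described above, was called in neither comparison. Serpinc1, antithrombin, the main inhibitor of thrombin and factor Xa, measured 9.03, 9.17, 9.68, 9.08 and 8.91 on p53f/f HCC arrays, 9.06, 8.75, 8.77, 9.35 and 8.98 in p53LKO HCC, and 7.76, 4.62, 7.09, 7.70 and 6.48 in ICC. The HCC groups interleaved (-0.19, 95% interval -0.62 to 0.23), and all 5 ICC arrays lay below both, the ICC of mouse 3733 lowest. The fall of 2.25 ± 0.516 (SE) on the log2 scale was 4.76-fold (adjusted p = 0.00562), and among lower-row arrays it kept its size but missed the threshold (-2.17, adjusted p = 0.0879).

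Serpind1, heparin cofactor II, which inhibits thrombin on dermatan sulfate, measured 7.70, 6.74, 6.91, 7.48 and 7.08 on p53f/f HCC arrays, 7.13, 7.58, 6.65, 7.10 and 7.52 in p53LKO HCC, and 4.997, 3.38, 4.27, 4.99 and 4.13 in ICC. The HCC groups overlapped (0.01, 95% interval -0.52 to 0.55), and no ICC array came within 1 log2 unit of them. Serpind1 was 7.17-fold lower in ICC (-2.84 ± 0.320 SE, adjusted p = 0.000128), and lower among lower-row arrays too (-3.001, adjusted p = 0.00664). Serpinf2, alpha-2 antiplasmin, which stops plasmin from dissolving clots, measured 8.90, 7.65, 8.10, 8.93 and 8.27 on p53f/f HCC arrays, 7.73, 7.71, 7.40, 8.13 and 8.27 in p53LKO HCC, and 6.38, 4.21, 6.02, 6.499 and 5.83 in ICC. All ICC arrays lay below all HCC arrays (4.17-fold against p53LKO HCC, adjusted p = 0.00219, and -1.93, adjusted p = 0.0515, among lower-row arrays), and the HCC groups did not pass the test (-0.52, 95% interval -1.13 to 0.09). These falls stood beside the lower hepatocyte sum of the same ICC arrays.

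Serping1, the inhibitor of the complement protease C1 and of kallikrein, fell outside this pattern. It measured 6.48, 5.31, 5.62, 6.16 and 6.56 on p53f/f HCC arrays, 6.36, 6.53, 5.71, 6.52 and 5.99 in p53LKO HCC, and 5.74, 5.11, 5.99, 5.87 and 5.72 in ICC. The groups overlapped, and neither difference was called (0.20, 95% interval -0.41 to 0.81, and -0.54, 95% interval -1.03 to -0.04, adjusted p = 0.0732).

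In clade E, Serpine2, the cell-surface inhibitor protease nexin 1, was well above background on 1 p53f/f HCC, 2 p53LKO HCC and all 5 ICC arrays. It measured -4.49, -3.66, -4.77, -4.84 and -2.49 on p53f/f HCC arrays, -3.40, -3.54, -2.10, -4.54 and -4.58 in p53LKO HCC and -0.78, -0.25, 0.69, -0.59 and 1.33 in ICC, which overlapped neither HCC group. The rise was 3.71 ± 0.531 (SE) on the log2 scale, 13.1-fold (adjusted p = 0.000447), although 3 of the 5 p53LKO HCC values under it were not well above background, so that its size is uncertain. Serpine2 was not tested between the HCC groups.

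Serpinf1, pigment epithelium-derived factor, a non-inhibitory serpin that restrains vessel growth, measured 5.48, 5.60, 5.53, 4.73 and 5.06 on p53f/f HCC arrays, 6.88, 6.57, 5.23, 0.20 and 7.11 in p53LKO HCC, and 4.60, 3.67, 4.83, 4.91 and 4.83 in ICC. The p53LKO HCC of mouse 3733 stood far below the other 4 on this probe and, at -2.62 against 2.32 to 4.28, on the second probe of the gene. With that array neither comparison was called (-0.08, 95% interval -2.54 to 2.38, and -0.63, 95% interval -3.11 to 1.85), and without it Serpinf1 was called higher in p53LKO than in p53f/f HCC and lower in ICC than in p53LKO HCC.

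Serpinh1, the collagen chaperone HSP47, measured 0.03, 0.86, 1.87, 0.51 and 1.35 on p53f/f HCC arrays, 1.99, 1.52, 3.56, 1.85 and 2.05 in p53LKO HCC, and 3.32, 3.71, 4.43, 2.88 and 3.82 in ICC. The p53LKO HCC group overlapped p53f/f HCC on 2 arrays, and ICC overlapped p53LKO HCC through the single array of mouse 3731. Serpinh1 was 2.41-fold higher in p53LKO HCC (adjusted p = 0.0407), a call lost under 16 of 26 other settings, and 2.71-fold higher in ICC (adjusted p = 0.0133), which missed the threshold with the mouse as a block (1.59, adjusted p = 0.0543). Of 5 collagen genes whose products it folds, Col4a1 was higher in p53LKO HCC (1.11), and Col1a1 (2.63), Col1a2 (2.74) and Col3a1 (2.78) were higher in ICC.

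**Figure D3:**
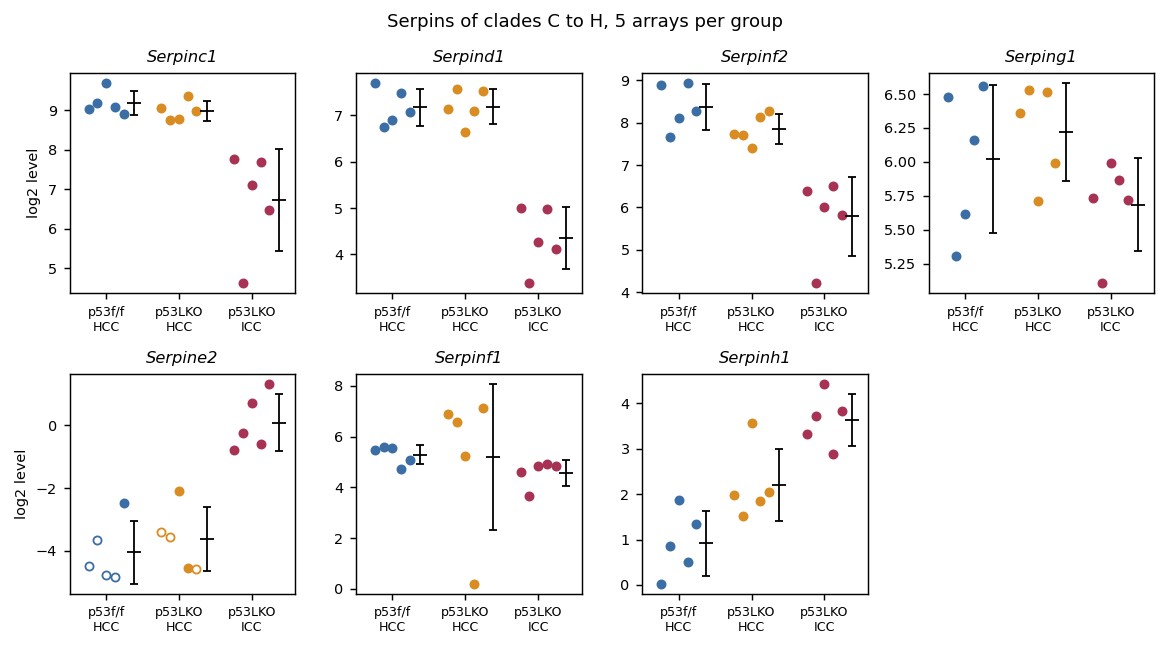
Log2 level of 7 genes of clades C to H on each array, with 5 arrays per group in replicate order, filled points well above background, open points not, and a black mark with bars for the mean and SD. Serpinc1, Serpind1 and Serpinf2 overlap between the HCC groups and are lower on all ICC arrays, Serpine2 is well above background on all ICC arrays, and 1 p53LKO HCC array of Serpinf1 lies at 0.20.

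Clade B genes gave the largest rises. Serpinb1a, the inhibitor of neutrophil elastase, cathepsin G and proteinase 3 that myeloid and epithelial cells carry in their cytoplasm, measured -0.92, 2.54, 4.48, -1.16 and -1.11 on p53f/f HCC arrays, -0.36, 4.34, 4.53, 2.67 and 0.74 in p53LKO HCC, and 7.19, 7.89, 7.57, 6.89 and 8.38 in ICC. Both HCC groups were spread over about 5 log2 units and overlapped (1.62, 95% interval -1.24 to 4.47), and every ICC array lay above every HCC array. Serpinb1a was 36.8-fold higher in ICC (5.20 ± 0.866 SE, adjusted p = 0.000989). Serpinb1c, a close copy, measured -6.28, -1.49, 1.17, -5.58 and -4.67 on p53f/f HCC arrays, -4.84, 0.32, 0.80, -0.93 and -2.92 in p53LKO HCC and 3.43, 4.22, 4.11, 3.04 and 4.95 in ICC, 44.2-fold apart (5.46 ± 0.950 SE, adjusted p = 0.00127). Of its HCC values -6.28, -5.58 and -4.84 were not well above background, the last of them in p53LKO HCC, so that the size of the ICC rise is uncertain. Within p53f/f HCC mice 3716 and 3715 were highest, as for Serpinb1a.

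The Serpinb6 genes are mouse copies of the single human SERPINB6, which inhibits cathepsin G and guards cells that hold granule proteases. Their brightest probes are shown because 3 of them are nearly 1 sequence, with capitals at the 5 positions where any of them differ.
Serpinb6a: aagtgaccttatccataaGtGCaatgGcaA
Serpinb6c: aagtgaccttatccataaGtGCaatgAcaG
Serpinb6e: aagtgaccttatccataaAtATaatgAcaG
They lie on the minus strand of chromosome 13 at 34009796 to 34009855, 33971703 to 33971762 and 33924218 to 33924277 (mm9). The Serpinb6a and Serpinb6c probes match at 39 of 42 overlapping bases and those of Serpinb6c and Serpinb6e at 41 of 47, so their alike values are not separate evidence for each gene.

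Serpinb6a measured 3.74, 4.63, 4.66, 5.26 and 4.31 on p53f/f HCC arrays, 5.39, 6.32, 5.29, 5.78 and 5.75 in p53LKO HCC, and 7.68, 8.34, 8.06, 7.64 and 8.51 in ICC. The 3 groups did not overlap, with p53f/f HCC lowest and ICC highest. Serpinb6a was 2.28-fold higher in p53LKO than in p53f/f HCC (1.19 ± 0.290 SE, adjusted p = 0.0101) and kept that call among upper-row arrays (1.09, adjusted p = 0.0353). The call was lost without the p53f/f tumor of mouse 3681 (0.99, a fold under 2), with quantile normalization and with scaling to probes detected on all arrays. Serpinb6a was 5.06-fold higher in ICC (2.34 ± 0.246 SE, adjusted p = 9.19e-05). Serpinb6c measured 3.49, 4.32, 4.65, 5.19 and 4.10 on p53f/f HCC arrays, 5.14, 6.20, 5.01, 5.67 and 5.57 in p53LKO HCC, and 7.56, 8.40, 7.82, 7.52 and 8.46 in ICC. Serpinb6e measured -1.90, -1.01, -0.81, -0.23 and -1.19 on p53f/f HCC arrays, -0.18, 0.62, -0.34, 0.36 and 0.09 in p53LKO HCC, and 2.77, 3.95, 3.35, 2.77 and 4.58 in ICC. In both, ICC lay above all HCC arrays and the highest p53f/f HCC array, that of the first tumor of mouse 3717, lay within the p53LKO HCC range. The p53LKO HCC rise of Serpinb6c was 1.17 (adjusted p = 0.0187) and that of Serpinb6e 1.14 (adjusted p = 0.0151), and among upper-row arrays both narrowly missed the threshold (adjusted p = 0.0572 and 0.0525). In ICC Serpinb6c was 5.40-fold (adjusted p = 0.000136) and Serpinb6e 10.4-fold higher (adjusted p = 9.41e-05).

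Serpinb6d measured -0.86, 0.27, 0.76, 0.74 and -0.02 on p53f/f HCC arrays, 0.97, 2.10, 0.91, 1.36 and 1.24 in p53LKO HCC, and 4.04, 4.76, 4.46, 3.79 and 5.80 in ICC. It too separated the 3 groups without overlap, at 2.20-fold (adjusted p = 0.0243, and 0.0753 among upper-row arrays) and then 9.53-fold (adjusted p = 0.000134). Serpinb6b measured -0.97, 1.90, 1.89, -0.71 and 1.05 on p53f/f HCC arrays, 1.65, 3.53, 2.16, 2.55 and 2.58 in p53LKO HCC, and 3.21, 4.23, 3.90, 3.08 and 4.60 in ICC. Its rise between the HCC groups, 1.86 (adjusted p = 0.0363), was lost under 17 of 26 other settings, and its rise in ICC was 2.48-fold (adjusted p = 0.0175), with 3 of 5 ICC arrays above every p53LKO HCC array, and was lost among lower-row arrays (1.22, adjusted p = 0.167).

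Serpinb9, the inhibitor of granzyme B that protects cytotoxic lymphocytes and some tumor cells from killing, measured -0.11, 0.19, 0.66, -0.36 and -0.24 on p53f/f HCC arrays, 0.84, 0.87, 0.98, 0.72 and 1.02 in p53LKO HCC, and 1.79, 3.79, 3.36, 1.54 and 4.05 in ICC. The 3 groups again did not overlap, and the ICC arrays fell into higher ones of mice 3733, 3976 and 5283 and lower ones of mice 3731 and 3977. The difference between the HCC groups was 0.86 (adjusted p = 0.00864), short of 2-fold, and the rise in ICC was 4.06-fold (2.02 ± 0.463 SE, adjusted p = 0.00558), of the same size among lower-row arrays but no longer called there (2.05, adjusted p = 0.0789). Gzmb, which encodes granzyme B, was called in neither comparison (0.70, adjusted p = 0.198, and -0.56, adjusted p = 0.404).

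Serpinb10, also called bomapin and known from myeloid cells, was not well above background on any of the 10 HCC arrays and measured -1.73, 0.21, -0.30, -1.30 and 0.74 in ICC. It was at least 14.2-fold higher in ICC (adjusted p = 0.000107). Serpinb5, maspin, an epithelial serpin and known p53 target, measured -2.24, -3.13, -2.003, -1.93 and -2.65 in ICC, where 3 of the arrays were well above background, against 1 p53f/f HCC and 0 p53LKO HCC arrays. It was called higher in ICC, at least 3.76-fold (adjusted p = 0.000644), but 2 of the 5 ICC values behind that bound were not well above background. The difference fell under 2-fold with normexp background correction (0.98), and without the ICC of mouse 3976, 3977 or 5283 too few arrays were left above background for a test. Serpinb5 was not tested between the HCC groups. Of 5 squamous markers 4 were tested in each comparison, 1 was lower in p53LKO HCC, and 2 were higher and 1 lower in ICC. Serpinb2, plasminogen activator inhibitor 2, was well above background on 2 ICC arrays and no HCC array, and was not tested.

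**Figure D4:**
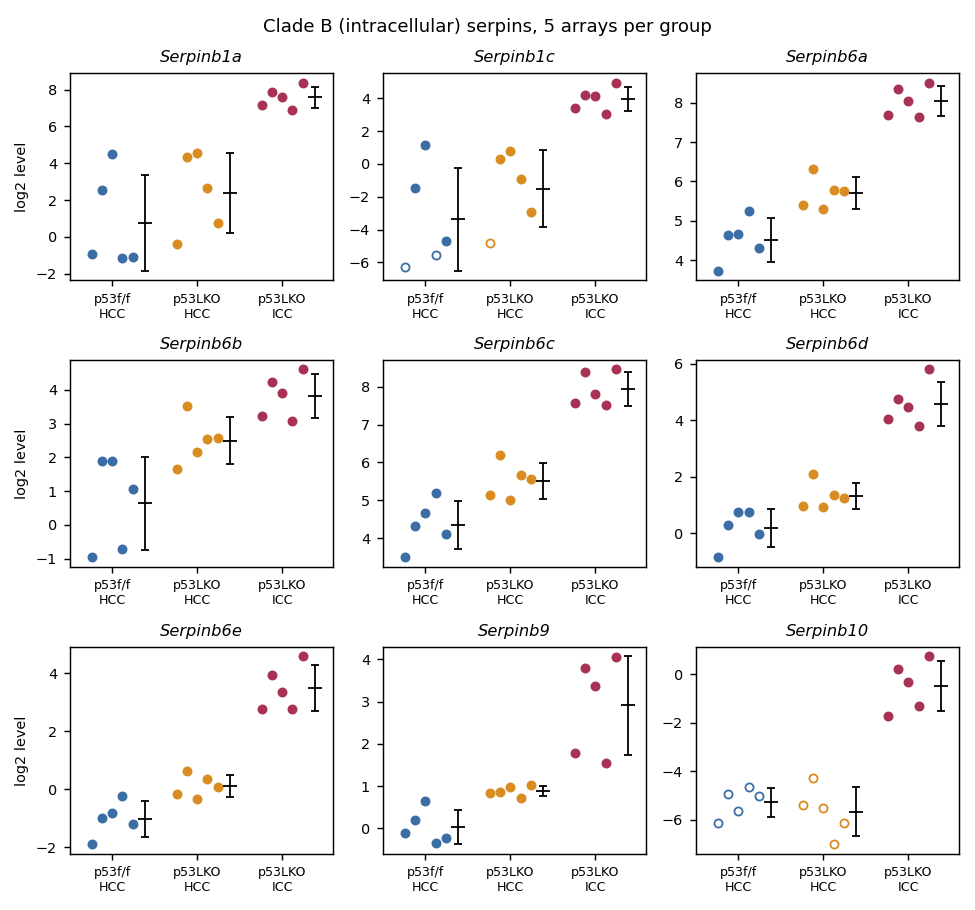
Log2 level of clade B genes on each array, with 5 arrays per group in replicate order, filled points well above background, open points not, and a black mark with bars for the mean and SD. Serpinb6a, Serpinb6d and Serpinb9 separate the 3 groups without overlap, and Serpinb1a and Serpinb1c lie highest on the ICC arrays.

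Of the remaining clade B genes, Serpinb11 was well above background on 1 p53f/f HCC and 4 p53LKO HCC arrays, and its rise of 1.31 (adjusted p = 0.0336), of uncertain size because 4 of the 5 p53f/f values were at background, was lost under 13 of 24 other settings. Serpinb3c was lower in p53LKO HCC without overlap, but short of 2-fold (-0.95, adjusted p = 0.00169). Serpinb8 lay between 4.12 and 5.91 and was called in neither comparison. Its probe (mm9 chromosome 1, 109504865 to 109504924, plus strand) is shown because it is mostly a GT repeat, with 83.3% of its 60 bases G or T, so that its signal may not be of 1 gene.
Serpinb8: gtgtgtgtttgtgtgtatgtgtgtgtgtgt
In clade B 6 of 27 genes were well above background on no array.

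In clade I, Serpini1, neuroserpin, an inhibitor of tissue plasminogen activator in neurons, measured -4.45, -3.58, -4.20, -3.28 and -2.76 on p53f/f HCC arrays, -3.48, -3.26, -2.66, -3.43 and -3.72 in p53LKO HCC, and -3.89, -4.26, -3.14, -4.55 and -2.38 in ICC. The groups overlapped, 8 of the 15 values were not well above background, and it was called in neither comparison (0.34, 95% interval -0.37 to 1.06, and -0.34, 95% interval -1.19 to 0.52). Serpini2, known from pancreas, was well above background on 5 p53f/f HCC, 3 p53LKO HCC and no ICC arrays. These were every upper-row array and no lower-row array, so that tumor type and row cannot be told apart in its detection. It passed the test as lower in ICC (adjusted p = 0.0125), but with no ICC array above background the size has no bound, and the call was lost with the mouse as a block (adjusted p = 0.0803) and among lower-row arrays (adjusted p = 0.135). Of 6 pancreatic acinar markers, 1 was lower in p53LKO HCC and 1 in ICC.

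The proteases and partners of serpins were listed as 27 genes, of which 26 were on the arrays by name and all 26 were tested. In p53LKO HCC 2 were higher and 0 lower, where 5.19% and 10.8% of all genes were called: Plat, tissue plasminogen activator, by 3.02 (adjusted p = 0.00631) and Plaur, the urokinase receptor, by 1.35 (adjusted p = 0.00533). In ICC 3 were higher and 15 lower, where 13.2% and 15.2% of all genes were called. Urokinase itself, Plau, rose by 1.72 (adjusted p = 0.00845), as did Plaur by 1.58 (adjusted p = 0.00119) and Ctss, cathepsin S, by 1.29. The 4 largest changes were falls of proteases made by the liver: Masp1 of the lectin pathway of complement (-2.93, adjusted p = 0.00177), and coagulation factor F10 (-2.77, adjusted p = 0.000834), protein C, Proc (-2.68, adjusted p = 0.00103), and factor F12 (-2.40, adjusted p = 0.00661). Thrombin, F2, the target of Serpinc1 and Serpind1, was lower in ICC as well (-1.64, adjusted p = 0.00333). Neutrophil elastase, Elane, the target of Serpina1 and Serpinb1a, was lower in ICC (-1.46, adjusted p = 0.000855), and in p53LKO HCC it was higher by 0.77 (adjusted p = 0.00935), short of 2-fold. The list's median log2 fold change was 0.20 between the HCC groups, against 0.06 over all genes, and -1.51 in ICC, against -0.17.

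**Figure D5:**
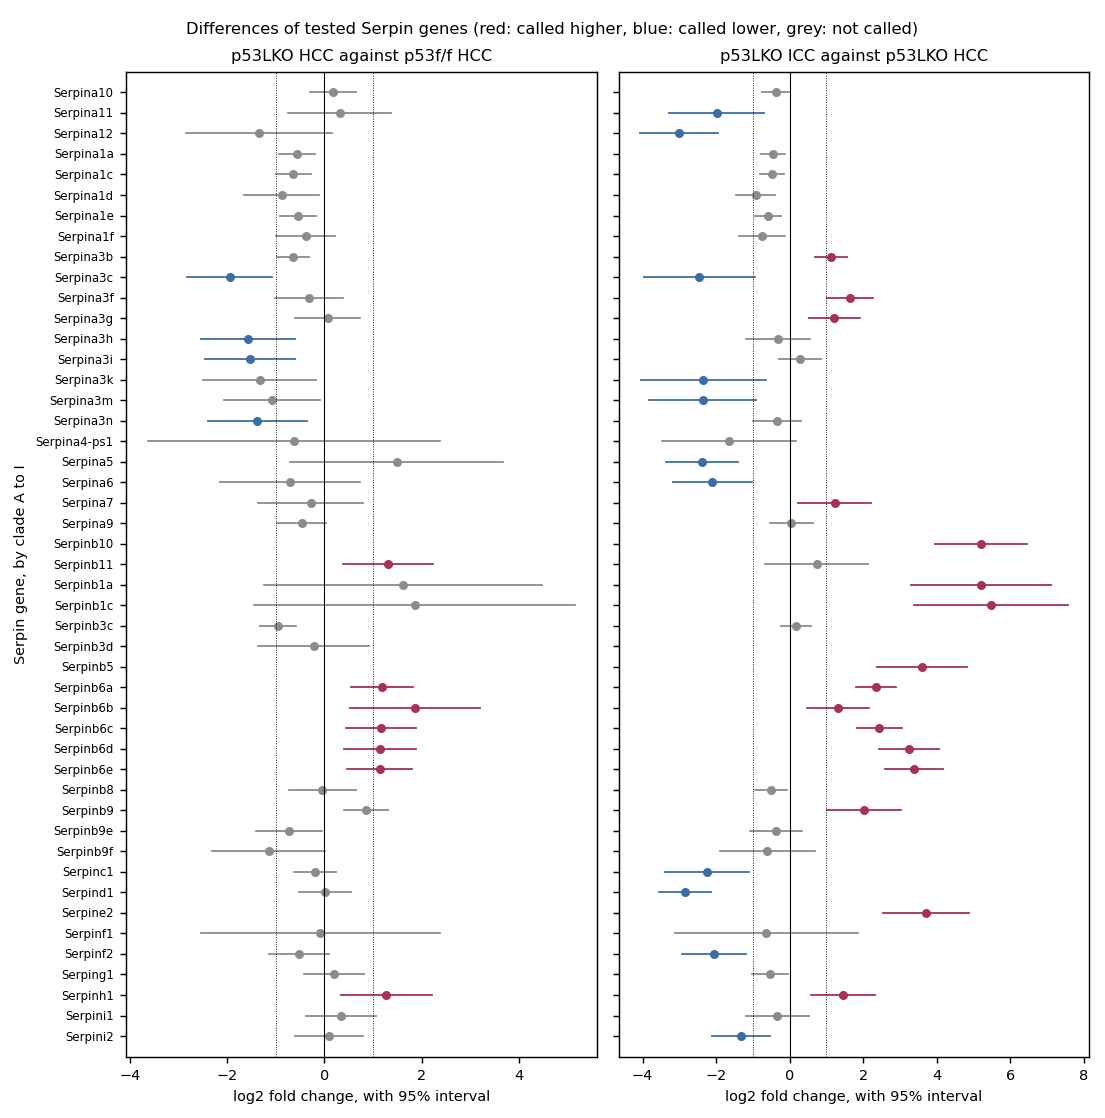
Log2 fold change of the tested Serpin genes but 1, with its 95% interval, for p53LKO against p53f/f HCC and for p53LKO ICC against p53LKO HCC, with dotted lines at a fold of 2, red for higher, blue for lower and grey for not called. Red marks are mostly clade B, from Serpinb6b at 1.31 to Serpinb1c at 5.46 in ICC, and no clade B gene is blue in either comparison.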

How the data were processed

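Total RNA of whole liver carcinomas was hybridised to 1-colour Agilent SurePrint G3 arrays, and per the file headers the authors' scans were read with Agilent Feature Extraction 10.7.3.1. The deposited intensity used here is the background-subtracted processed signal of each spot. Spots of a probe were averaged, control spots left out, and log2 signals centred on the 75th percentile of each of the 15 arrays. Probes detected (well above background) on 3 or more arrays of either group were fitted with limma 3.58.1 in R 4.3.3, each comparison on its own 10 arrays, and p-values were adjusted (Benjamini-Hochberg) over all probes tested. The deposited log2 value table of the authors was used as an alternative for the HCC groups: its columns are centred per gene on the 10 HCC arrays for HCC and on the 10 p53LKO arrays for ICC, so it gives no second comparison. Gene names and mm9 positions are those of the scanner files. Promoters came from RefSeq tables, which matched 50 of the 61 Serpin genes.

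Values on every array were given for a set list of Serpin genes, for all called Serpina3 genes and for the 8 largest rises and falls without overlap. The members, lists and rules were chosen with earlier results of these data known. Groups came from the labels. The samples are separate tumors, some of 1 mouse, and p-values measure only the spread between them. Mice 3731, 3733, 3976 and 5283 gave both an HCC and an ICC, and the mouse as a block is an alternative. Deviations of their 2 tumors correlated at -0.142, 0.0601, 0.0658 and 0.0644 across probes, within the range of all pairs of tumors (-0.263 to 0.283). Slide, row, background, scaling, filter, test and leaving out each array were varied. The number of arrays limits the precision. Fits were tested on simulated data. Figures were drawn with matplotlib 3.10.9. The values of 1 Serpin gene are not reported here, although counts over the family include it.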

Additional observations from a re-analysis of the deposited data

Results flagged for a closer look

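Within each group of 5 arrays the highest or lowest was set against the others, over 144 groups of 48 Serpin genes, and 6 stood apart by Dixon's 95% criterion, where chance alone flags about 1 in 20. The ICC of mouse 3733 gave 3 of them: Serpina3b at -0.26 (other ICC arrays -1.25 to -1.02), Serpina3n at 1.93 (2.63 to 2.86) and Serpinf1 at 3.67 (4.60 to 4.91). The p53LKO HCC of the same mouse measured 0.20 for Serpinf1, where the other 4 measured 5.23 to 7.11. The p53LKO HCC of mouse 3731 was high for Serpinh1, at 3.56 (1.52 to 2.05), and low for Serpinb3c, at -2.95 (-2.51 to -2.34).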

How the results depend on the processing

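Higher calls between the HCC groups (7) fell to 4 with normexp background correction, 2 with quantile normalization, 0 with scaling to probes detected on all arrays, 3 without a filter, 2 with the row as a block, 2 on upper rows alone, 3 by the methods' t-test and 2 by the Mann-Whitney test. Lower calls (4) became 8 with scaling to probes detected on all arrays, 1 with spike-in scaling, 7 with the slide as a block, 2 with the row as a block, 2 on upper rows, 1 by the t-test, 2 by the Mann-Whitney test and 9 without a fold limit. The second slide alone, chosen after seeing the data, leaves 1 p53f/f HCC array, so that its calls cannot be read. It is still among the other settings over which lost calls of single genes were counted between the HCC groups. Leaving out 1 array gave 1 to 7 higher (1 without mouse 3681, 3 without the p53LKO HCC of mouse 5283, 4 without the second tumor of mouse 3717) and 3 to 7 lower (7 without mouse 3716). For ICC, lower calls (11) fell to 5 with the row as a block and 4 on lower rows alone, and the 16 higher calls stayed within 1.5 times under every setting run. Leaving out 1 array gave 14 to 16 higher and 9 to 12 lower. With the mouse as a replicate block, 13 were higher and 9 lower, and the calls lost were Serpina3g, Serpina7, Serpinh1, Serpina11 and Serpini2. The authors' table gave the same 7 and 4 calls between the HCC groups. The median log2 fold change of all genes between the HCC groups moved from 0.06 to 0.79 with spike-in scaling and to -0.18 with scaling to probes detected on all arrays, and in ICC from -0.17 to 0.20 with the latter and 0.23 without a filter. The cause of these differences was not tested. No gene called at 2-fold changed its direction under any setting, but Serpina1a, Serpina1c, Serpina1e and Serpina3b, which passed between the HCC groups short of 2-fold, turned positive with spike-in scaling. Dim genes are limited by background: Serpina5, Serpina12, Serpinb5 and Serpinb10 have only bounds in ICC comparisons, and Serpini2 has none. Serpine2 and Serpinb1c in ICC and Serpinb11 between the HCC groups rest partly on values at background.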
